A study of Danio rerio with 16 samples.

Results

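The comparison described here is that of wild type zebrafish embryos injected with Sox2 mRNA (WT_Sox2, 3 samples) against uninjected wild type embryos (WT, 3 samples). These are 6 of the 16 samples of the series, chosen by their titles. WT_Sox2 embryos received 50 pg of Sox2 mRNA each, and WT embryos received none. From 1.5 hours after fertilization both groups stood in cycloheximide (15 µg/ml), freezing followed at 4.7 hours, and each sample pooled 60 to 100 whole embryos. The genes described are those whose mean log2 intensity over the 6 samples was at least 8, which left 4944 of 9238 named genes. A gene was read by its brightest probe. The other 10 samples carry the m793 allele of spg (MZ), uninjected or injected with Sox2 mRNA (MZ_Sox2) or Pou5f1 mRNA (MZ_Pou5f1), with the same cycloheximide treatment.

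Sox2 is a transcription factor of the SoxB1 family, which binds DNA through an HMG box and often acts beside a POU factor. In the zebrafish that partner is Pou5f1, whose gene is now called pou5f3, and both families are known for switching on the embryo's own genes when control passes from stored maternal RNA to new transcription. Cycloheximide blocks protein synthesis, so the comparison asks which transcripts differ after Sox2 injection when later proteins cannot be made. Maternal RNA stored in the egg is still present at the blastula stage and is gradually cleared.

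The 3 replicates of a group were unlike each other to very different degrees, which bears on every value below. Across the 7678 bright probes, WT replicates 1 and 2 had a Spearman correlation of 0.996, while WT replicate 3 correlated with them at only 0.803 and 0.799. WT_Sox2 replicates 1 and 2 correlated at 0.975, and replicate 3 correlated with them at 0.927 and 0.914. Of all 16 samples, the closest to WT_Sox2 replicate 3 was the sample labelled MZ_Pou5f1 replicate 2 (0.982), and the closest to WT replicate 3 was that labelled MZ replicate 1 (0.919). WT replicate 3 held the highest of the 6 values for 1442 bright named genes (29.2%) and the lowest for 1594. The spiked-in E1A control features had median intensities of 48.7, 75.4 and 1245 in WT_Sox2, against 2466, 1513 and 12697 in WT. All 3 WT_Sox2 samples lay on 1 slide that held no WT sample, and injection and slide therefore cannot be told apart. These correlations are across probes, which are not independent replicates.

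Markers of embryo parts also varied between replicates. Germ line markers, which mark the germ plasm inherited from the egg, were bright for all 5 listed genes, and their summed intensity was 102289, 95732 and 72540 in WT_Sox2 against 72814, 63099 and 43392 in WT. Of these genes only ca15b and ddx4 were higher in WT_Sox2 without overlap. The groups overlapped for nanos3, dazl and piwil1, and the piwil1 log2 difference was negative (-0.15). The blastoderm genes klf17 and foxd3 encode transcription factors made early by the embryo, and both lay under the brightness limit. The klf17 intensity was 1701, 2592 and 24.9 in WT_Sox2, against 9.48, 10.6 and 1929 in WT. The foxd3 intensity was 718, 1668 and 5.58 in WT_Sox2, against 10.3, 8.63 and 457 in WT. For both genes WT_Sox2 replicates 1 and 2 and WT replicate 3 were high and the other 3 samples were low, so that the groups overlapped. The 3 bright blastoderm markers, pou5f3, vox and sox19a, were highest in the same samples but with smaller gaps. Summed blastoderm intensities were 36052, 55374 and 20853 in WT_Sox2 against 23624, 24918 and 63440 in WT. Summed intensities of the yolk syncytial layer markers were 6609, 15428 and 3026 in WT_Sox2 against 2703, 2570 and 44696 in WT, and those of the enveloping layer 1660, 2067 and 1138 against 1033, 921.8 and 8463. WT replicate 3 was the highest of the 6 samples for both sums. Bright were only 2 of the 5 yolk syncytial layer markers on the array and 1 of the 6 of the enveloping layer. The dim markers krt18a.1, cldne and apobb.1 were not highest in WT replicate 3. The part of sample differences of this kind in the gene results was not tested. Median intensities of the lists for muscle, blood, gut and nervous tissue, which form later, lay between 7.90 and 24.4 in the 6 samples.

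The probes of the injected gene and of its partner were read next. The sox2 probe lay under the brightness limit, with intensities of 18.8, 22.4 and 37.8 in WT_Sox2, against 107.8, 123.5 and 314.8 in WT. All 3 WT_Sox2 samples were below all 3 WT samples, and the log2 difference of -2.68 (SE 0.69) was not called (limma adjusted p = 0.12). No source used here says whether the probe lies in the injected mRNA, and it does not check the injection. The pou5f3 probe read 25896, 38208 and 15499 in WT_Sox2, against 18400, 20079 and 33080 in WT. The groups overlapped, with a log2 difference of 0.11 (SE 0.40, limma adjusted p = 0.921), and a second pou5f3 probe gave 0.09 (SE 0.40).

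Of the 4944 bright named genes, 2 were called lower in WT_Sox2 (0.0405%) and 0 higher, in limma with p-values adjusted by Benjamini-Hochberg across 21495 probes (called below 0.05). Over all probes 21 were called (0.0977%), 17 higher (0.0791%) and 4 lower (0.0186%). Without adjustment, 825 bright genes had a p under 0.05 (16.7%), against 14.5% of all probes. The groups did not overlap for 1362 bright genes (27.5%), of which 732 were higher (14.8%) and 630 lower (12.7%) in WT_Sox2. The share over all probes was 27.3% (12% higher, 15.3% lower), so bright genes separated the groups about as often as probes of any level. The median log2 difference was 0.05, and its median size without sign was 0.42. The median SD was 0.31 in WT_Sox2 and 0.43 in WT, but only 0.08 between WT replicates 1 and 2.

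**Figure D1:**
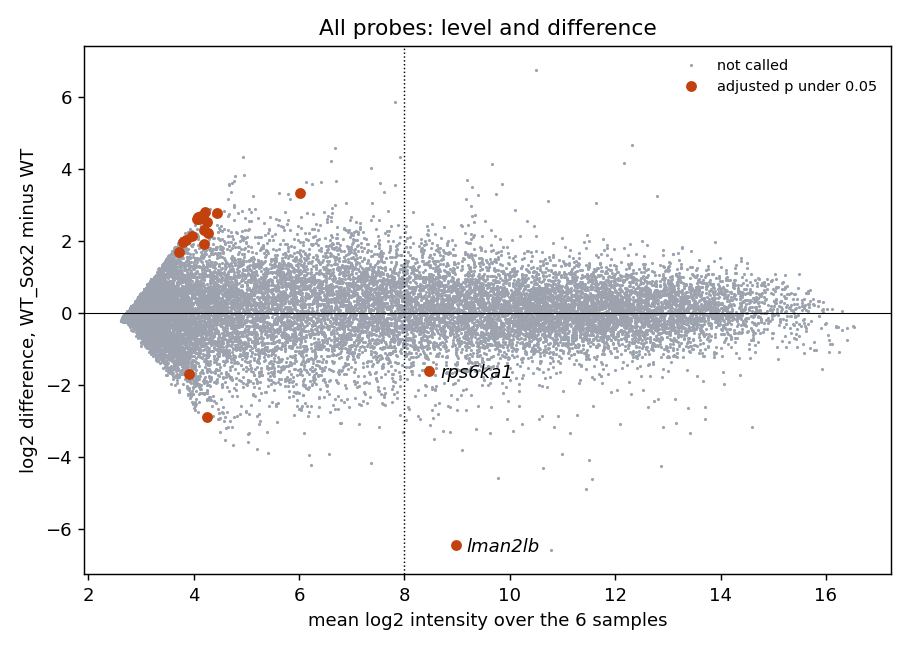
Log2 difference, WT_Sox2 minus WT, from the limma fit (vertical axis) against the mean log2 intensity over the 6 samples (horizontal axis), 1 point per probe, 21495 probes. The dotted line is the brightness limit of 8, and of the 21 called probes only lman2lb and rps6ka1 lie to the right of it.

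The gene lman2lb, which encodes a mannose-binding lectin of the secretory pathway, had the largest fall among the called genes. Its intensity was 42.5, 36.7 and 99.3 in WT_Sox2, against 4814, 5741 and 3792 in WT. Each WT_Sox2 sample was far below each WT sample, and the gene fell by 6.46 on the log2 scale (SE 1.05, limma adjusted p = 0.0493), which is 87.9-fold lower. It was also low in some samples of other groups. It read 4833, 1715, 5270 and 2404 in MZ_Sox2 and 2108, 2952 and 184 in MZ, and 131, 167 and 4377 in MZ_Pou5f1. Samples labelled as 1 group thus held both high and low values in MZ and MZ_Pou5f1.

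The gene rps6ka1 encodes a ribosomal S6 kinase that acts downstream of ERK signalling. Its intensity was 167, 184 and 274 in WT_Sox2, against 591, 532 and 767 in WT. The groups did not overlap, and the gene fell by 1.61 on the log2 scale (SE 0.26, limma adjusted p = 0.0493), which is 3.06-fold lower. In the 10 MZ samples it read between 252 and 465, below all 3 WT samples. A second, dimmer rps6ka1 probe had a log2 difference of -0.81 (SE 0.50) and was not called (limma adjusted p = 0.476). Both called genes passed the brightness limit mainly through WT. Of the 4323 genes with a log2 intensity of 8 or more in every one of the 6 samples, limma called 0. The called genes also depended on single samples: without WT_Sox2 replicate 3 limma called 14 bright genes, and without any other single sample 0.

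A further 45 bright genes lay between an adjusted p of 0.05 and 0.1, so that 47 were under 0.1, 15 higher and 32 lower. The genes next described are the 12 in each direction with the largest moderated statistic among those whose groups did not overlap. Except for lman2lb and rps6ka1 none was called, and their values are given as measured.

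The gene notch1a, for a Notch receptor, read 1643, 1168 and 964 in WT_Sox2, against 497, 503 and 400 in WT, a log2 difference of 1.40 (SE 0.25, limma adjusted p = 0.0611). Every WT_Sox2 sample was higher than every WT sample. The gene fgfr1a, for a fibroblast growth factor receptor, read 2504, 1696 and 3953 in WT_Sox2, against 16931, 19683 and 37837 in WT. All WT_Sox2 samples were lower, with a log2 difference of -3.18 (SE 0.56, limma adjusted p = 0.0611). The gene ppp3r1b, for the regulatory subunit of calcineurin, had a log2 difference of -1.62 (SE 0.31), but a second bright probe of it gave 0.91 (SE 0.29).

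The gene atp6v1d, for a subunit of the vacuolar proton pump, read 5817, 5255 and 5166 in WT_Sox2, against 1870, 1797 and 2749 in WT (log2 difference 1.37, SE 0.25, limma adjusted p = 0.0611). The gene dlst, for a component of the alpha-ketoglutarate dehydrogenase complex, read 14496, 18705 and 18473 in WT_Sox2, against 8508, 7171 and 5824 in WT. In both genes the groups did not overlap. Smaller differences were seen for sucla2, for a subunit of succinyl-CoA ligase (0.92, SE 0.20), and for bcap31, for a membrane protein of the endoplasmic reticulum (0.96, SE 0.21). The mitochondrial factor gene mterf3 had a log2 difference of 1.52 (SE 0.33), the tRNA modification gene tyw3 1.19 (SE 0.27), and afmid, for an enzyme of tryptophan breakdown, 1.51 (SE 0.34). The spread within WT_Sox2 differed between these genes. The bcap31 intensity was 12997, 13452 and 13415 in WT_Sox2, against 7272, 6248 and 6965 in WT. The mterf3 intensity was 2952, 2421 and 1293 in WT_Sox2, against 724, 748 and 727 in WT, so that its WT_Sox2 samples lay further apart than its WT samples.

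The gene nup37, for a protein of the nuclear pore, differed most on the higher side of these 24 genes. It read 5555, 6992 and 3158 in WT_Sox2, against 390, 428 and 1118 in WT, a log2 difference of 3.12 (SE 0.67, limma adjusted p = 0.0912), and a second bright probe gave 1.73 (SE 0.45). Both probes placed every WT_Sox2 sample above every WT sample. The egg coat gene zp3 read 2101, 2063 and 2426 in WT_Sox2, against 749, 791 and 572 in WT. The ovochymase gene ovch1 had a log2 difference of 1.39 (SE 0.30), though its second, dimmer probe gave 0.05, and the membrane serine protease gene tmprss4b had 1.22 (SE 0.23).

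On the lower side, atf4a, for a transcription factor of the integrated stress response, read 3175, 2498 and 5119 in WT_Sox2, against 26771, 32304 and 48380 in WT. No sample overlapped, and the log2 difference was -3.34 (SE 0.60, limma adjusted p = 0.0611). The calpain protease gene capn3a read 468, 230 and 1229 in WT_Sox2, against 9385, 13874 and 26567 in WT, a log2 difference of -4.89 (SE 0.87). The chloride channel gene clcn2c read 573, 464 and 1291 in WT_Sox2, against 5982, 6331 and 44614 in WT. In these 3 genes WT_Sox2 replicate 3 was the highest of its group and WT replicate 3 the highest of WT, as held for 11 and 9 of the 12 genes. The remaining genes were gapdhs, for a glycolytic dehydrogenase (-3.18), thumpd1, for an RNA-binding protein (-2.96), phtf2 (-3.08), the RNA helicase gene helz (-1.60) and ankhd1, for an ankyrin repeat protein (-1.03). Other probes went the opposite way for gapdhs (1.22 for 1 dim probe) and for ankhd1 (0.94 and 0.46).

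**Figure D2:**
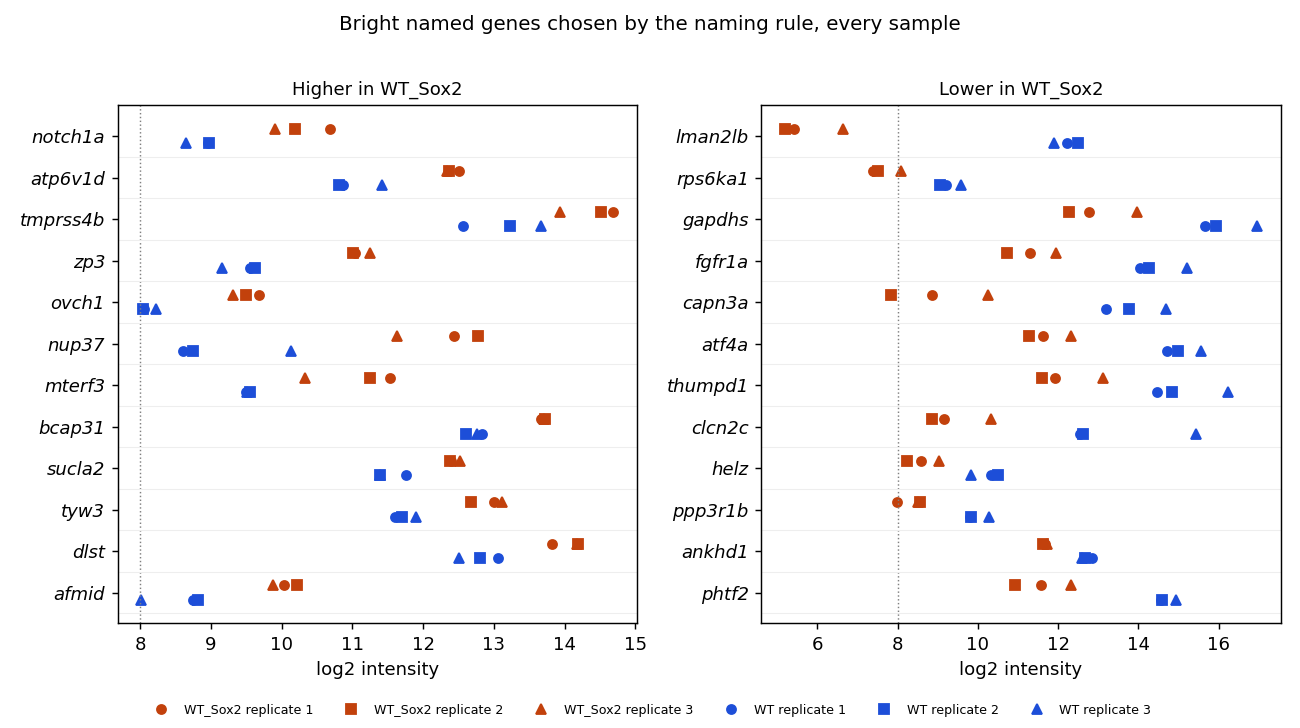
Log2 intensity (horizontal axis) in each of the 3 WT_Sox2 samples (orange-red, upper of each pair) and 3 WT samples (blue, lower), for the 12 higher and 12 lower genes described, with marker shape for the replicate number. The groups do not overlap for any of them, which is how the genes were chosen, and the dotted line is the brightness limit of 8.

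Of the 4944 bright genes, 39 were lower and 10 higher in WT_Sox2 by 2 or more on the log2 scale with groups that did not overlap. Of these only lman2lb was called. Over all 21495 probes the same rule gave 220 lower and 217 higher, and over the 13817 under the brightness limit 146 lower and 191 higher. With overlapping groups counted too, 49 bright genes were lower and 27 higher by that much, against 300 and 300 of all probes. Without WT replicate 3, 24 of the 39 and 5 of the 10 still differed by that much. The genes named in the rest of this paragraph, other than those on the fixed lists, were chosen after their values were seen. Transcription regulators among the 39 included rx3 of the eye field, sox1b of the SoxB1 family, atf4a, jun, mef2ca, cux1a, sall1a and the repressors id1 and her5. Without WT replicate 3 the differences of cux1a (-1.82), sall1a (-1.27) and jun (-1.84) were smaller than 2 in size. Among the 10 higher genes was another Sox gene, sox4b, at 1231, 1522 and 3269 in WT_Sox2, against 285, 316 and 930 in WT. Its log2 difference was 2.06 (SE 0.83, limma adjusted p = 0.279), and 2.61 without WT replicate 3. The rx3 intensity was 86.1, 287 and 636 in WT_Sox2, against 2728, 2614 and 2230 in WT, a log2 difference of -3.33 (SE 1.13, limma adjusted p = 0.213). The sox1b intensity was 255, 108 and 358 in WT_Sox2, against 953, 1279 and 6681 in WT. For both genes all WT_Sox2 samples were below all WT samples. Receptor genes among the 39 included fgfr1a, igf1rb, tek, tyro3 and ackr3b. Of these, tyro3 (-1.60) and ackr3b (-1.31) also fell short of 2 in size without WT replicate 3. The igf1rb gene, for an insulin-like growth factor receptor, read 361, 452 and 492 in WT_Sox2, against 2420, 2032 and 1667 in WT (log2 difference -2.22, SE 0.50, limma adjusted p = 0.0942), while a second, dimmer probe of it had a difference of -0.08. For ccnd1, the gene of cyclin D1, a single sample set the value: 172, 166 and 170 in WT_Sox2, against 248, 234 and 5624 in WT, and the difference of -2.03 became -0.45 without WT replicate 3. On the higher side qrich1 showed the reverse, at 1475, 1620 and 1661 in WT_Sox2, against 1215, 1329 and 8.91 in WT.

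Of the SoxB list 4 of 6 genes were bright. The sox3 gene read 588, 1133 and 447 in WT_Sox2, against 422, 395 and 2854 in WT, and sox19a read 3131, 6681 and 1388 against 1774, 1915 and 7038. Both overlapped, with log2 differences of -0.23 (SE 1.08) and 0.09 (SE 0.96). For neural ectoderm genes reported downstream of SoxB1, 15 were bright, 0 were called and 3 were lower without overlap, with a median log2 difference of -0.33. The 3 genes are 20% of the list, against 27.5% of all bright genes without overlap in either direction. Besides rx3 and her5, the third was irx1a, at 290, 274 and 403 in WT_Sox2, against 580, 628 and 626 in WT. Without WT replicate 3 the median of the 15 was 0.21.

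Several lists of developmental and immediate early genes had negative medians that turned positive without WT replicate 3. Early zygotic transcription factors and repressors had a median log2 difference of -0.33 over 17 bright genes, and 0.56 without that sample. The repressor gene her6 in this list read 1135, 1947 and 2762 in WT_Sox2, against 3843, 3136 and 17179 in WT. The medians were -0.08 and 0.29 for the mesendoderm and Nodal pathway, -0.34 and 0.06 for FGF and Wnt ligands and feedback genes, and -0.45 and 0.16 for immediate early genes. Of the FGF and Wnt list 17 of 21 genes had negative differences (19.05% positive, against 53.3% of all bright genes). Among them was il17rd, for an inhibitor of FGF signalling, at 2918, 2371 and 2298 in WT_Sox2 against 4395, 4641 and 6050 in WT. Another bright il17rd probe gave -1.10 (SE 0.32), but by a dimmer one, still over the brightness limit, the groups overlapped (0.24, SE 0.48). Dorsal organizer genes kept a negative median, at -0.69 with all samples and between -1.17 and -0.35 when each of the 6 samples was left out in turn. In that list lhx1a, a homeobox gene of the organizer, read 1276, 998 and 1503 in WT_Sox2, against 2046, 1848 and 4967 in WT. Pluripotency and blastula regulators had a positive median of 0.11 with all samples, and between -0.26 and 0.26 with each sample left out. None of the members of these lists was called.

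Lists of some basic cell functions had positive medians. For splicing factors (0.04) and heat shock and unfolded protein response genes (0.10) the median lay near the 0.05 of all bright genes. With each sample left out these 2 medians ranged from -0.07 to 0.11 and from -0.15 to 0.25. Of 54 oxidative phosphorylation genes 43 had positive differences (79.6%, against 53.3% of all bright genes and 45.2% of all probes), with a median of 0.46, between 0.24 and 0.65 when each sample was left out. Without overlap 12 were higher and 1 lower, together 24.1%, against 27.5% of all bright genes. The median difference of the WT_Sox2 means from WT replicate 3 alone was -0.08, and from WT replicates 1 and 2 it was 0.64 and 0.74. Of 40 proteasome genes 30 were positive, with a median of 0.39, and 15 were higher and 3 lower without overlap, against 14.8% and 12.7% of all bright genes. The proteasome subunit gene psmb2 read 3721, 3451 and 5491 in WT_Sox2, against 2013, 1844 and 2771 in WT, and its other 2 probes also placed every WT_Sox2 sample above every WT sample, with the larger log2 difference at 1.13. Ribosomal protein genes had a median of 0.22 over 60 genes, but single members went both ways: rps10 had 1.47 (SE 0.36) and rps15a -1.34 (SE 0.36). None of these members was called.

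Germ plasm and maternal egg lists also had positive medians, of 0.36 over 15 genes and 0.33 over 21. Of the 15 germ plasm genes 9 were positive and 6 negative (60% positive, against 53.3% of all bright genes). Their median difference of the WT_Sox2 means was -0.03 from WT replicate 1, 0.22 from replicate 2 and 0.81 from replicate 3. The germ line gene ca15b read 42449, 33080 and 31828 in WT_Sox2, against 11368, 10149 and 19498 in WT, a log2 difference of 1.44 (SE 0.44, limma adjusted p = 0.177). The egg coat gene zp2.3 read 11205, 7135 and 15716 in WT_Sox2, against 3968, 3731 and 4769 in WT. By these probes all WT_Sox2 samples were higher. The other 2 probes of zp2.3 had log2 differences of 0.85 and 0.80, and in both WT replicate 3 overlapped with WT_Sox2. The called gene lman2lb belongs to the maternal list and stood against its median. Of the 23 lists with 3 or more bright genes, 11 had a positive median, and 18 without WT replicate 3. The sign of the median was the same with each of the 6 samples left out in 7 lists, namely those for the dorsal organizer, germ plasm, maternal egg, ribosomal proteins, oxidative phosphorylation, proteasome and translation factors. Within dyes 2 of these 7 did not keep it. The germ plasm median was -0.23 in Cy5 (1 sample per group) and 0.50 in Cy3 (2 per group), and that of ribosomal proteins was 0.53 in Cy5 and -0.02 in Cy3. The germ plasm median was between 0.19 and 0.46 with each sample left out, and that of ribosomal proteins between 0.03 and 0.39.

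**Figure D3:**
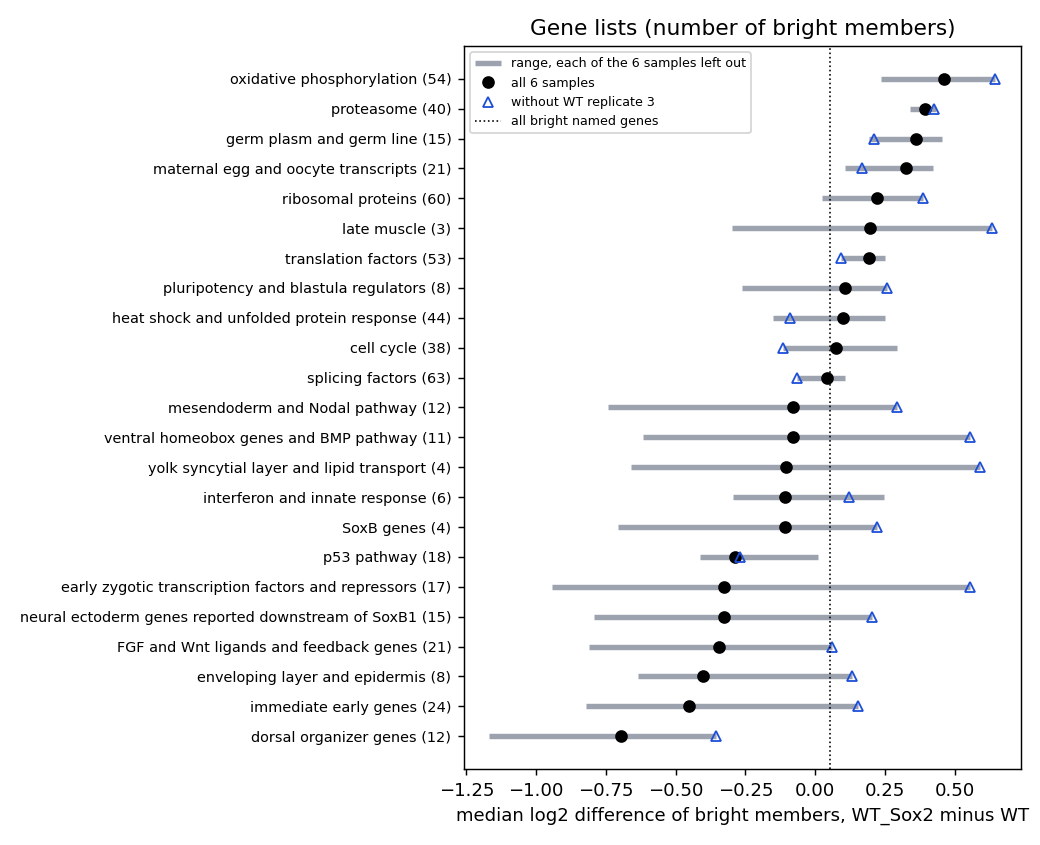
Median log2 difference, WT_Sox2 minus WT, of the bright members of 23 gene lists (number of bright members in brackets), with all 6 samples (dots), without WT replicate 3 (open triangles) and as the range when each sample is left out (grey bars). The dotted line is the median of all bright named genes, 0.05, and the grey bars of 7 lists keep to one side of 0.

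**Figure D4:**
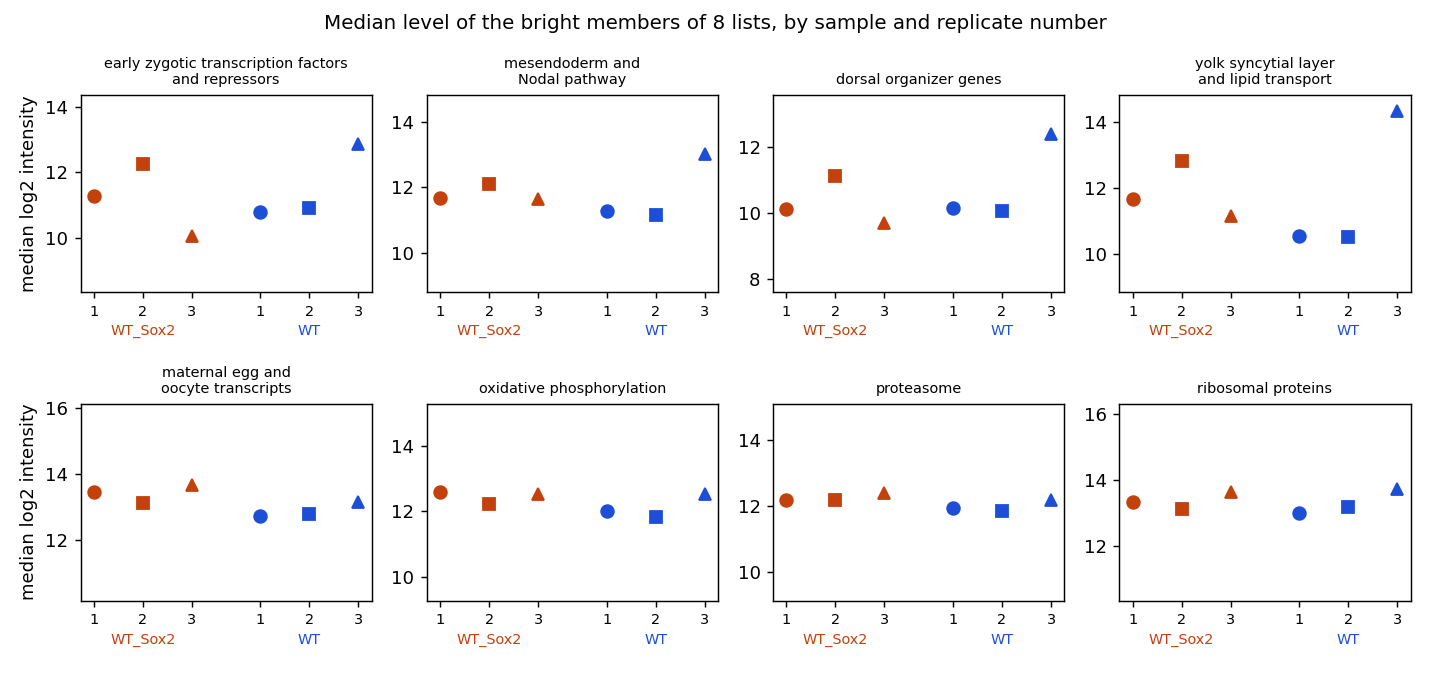
Median log2 intensity (vertical axis) of the bright members of 8 lists in each WT_Sox2 and WT sample, by replicate number (horizontal axis). WT replicate 3 is the highest of the 6 samples in the upper 4 panels, while in the lower 4 panels the samples lie closer together.

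Other lists held genes in both directions. In the enveloping layer and epidermis list the adhesion gene cdh1, for E-cadherin, read 4424, 6623 and 7635 in WT_Sox2, against 17288, 11544 and 30753 in WT (log2 difference -1.59, SE 0.40, limma adjusted p = 0.111). Every WT_Sox2 sample was lower. The claudin gene cldn7b read 14406, 21497 and 15566 in WT_Sox2, against 38451, 32378 and 31510 in WT, but by a second bright probe the groups overlapped (-0.30, SE 0.45). Of 38 cell cycle genes 10 were higher and 7 lower without overlap, against 14.8% and 12.7% of all bright genes, and the median log2 difference was 0.08. The cyclin E gene ccne1 had a log2 difference of -1.63 (SE 0.50) and its partner kinase gene cdk2 0.70 (SE 0.24), and neither was called. The p53 list had 7 positive members (38.9%, against 53.3% of all bright genes), 11 negative ones and a median of -0.29. Without overlap 2 were higher and 4 lower, together 33.3%, against 27.5% of all bright genes. Its apoptosis genes apaf1 and baxa had 1.16 (SE 0.35) and 0.59 (SE 0.22), and gadd45bb, for a stress response protein, had -0.74 (SE 0.46) with all WT_Sox2 samples lower. The RNA decay factor genes zfp36l2 and zfp36l1a had -1.12 (SE 0.31) and -1.15 (SE 0.37), with all WT_Sox2 samples lower. By a second bright zfp36l1a probe the groups overlapped (-0.64, SE 0.65). Of the chaperone genes, hspa5 of the endoplasmic reticulum had -0.86 (SE 0.24), and tcp1 of the cytosol had 0.82 (SE 0.25) by its brightest probe, with its other 2 probes at -0.12 and -0.57. The translation initiation gene eif5b read 12201, 8264 and 15634 in WT_Sox2, against 35611, 37257 and 42274 in WT (log2 difference -1.72, SE 0.38, limma adjusted p = 0.0912). The splicing factor genes sf3a1 and srsf9 had -1.21 (SE 0.30) and -1.10 (SE 0.32). Another bright sf3a1 probe gave -1.55 (SE 0.81), but a dimmer one, still over the brightness limit, gave 1.60 (SE 1.09). Across the 1303 genes with several bright probes, all probes had the same sign in 800 (61.4%).

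Some genes split the replicates of both groups. The lipid carrier gene apoeb read 2734, 9643 and 54.7 in WT_Sox2, against 165, 93.2 and 27079 in WT, and its 9 other probes ordered the samples in much the same way. A probe of the protease gene ctsba read 53144, 59263 and 1073 in WT_Sox2, against 9.31, 11.4 and 25647 in WT, a log2 difference of 6.75 with an SE of 4.23. The brightest ctsba probe did not split the replicates, at 41659, 38084 and 34686 in WT_Sox2 against 31510, 38084 and 56016 in WT (log2 difference -0.10, SE 0.40). For apoeb and the split ctsba probe WT replicate 3 lay far from WT replicates 1 and 2.

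Whether the difference after Sox2 injection was another one in MZ embryos was tested as an interaction in the same limma fit. Of the bright named genes 0 were called (0.0%), and 583 had an unadjusted p under 0.05 (11.8%, against 9.09% of all probes). A p over the threshold does not show that the differences were alike. For lman2lb the log2 difference of MZ_Sox2 minus MZ was 1.61, and for fgfr1a it was -0.26, for atf4a 0.11 and for notch1a 0.10. For bright genes whose groups did not overlap, the median of the 10 MZ samples, injected and uninjected together, was compared with both groups. For the 732 genes higher in WT_Sox2 it was nearer to WT_Sox2 in 471 and to WT in 261. For the 630 lower genes it was nearer to WT_Sox2 in 407 and to WT in 223. The share among genes with overlapping groups was not counted, so these counts lack a reference and do not describe uninjected MZ embryos alone. The gene nup37 read 509, 2368, 2388 and 2727 in MZ_Sox2 and 3610, 3593 and 2210 in MZ, so that 6 of these 7 samples lay above all WT samples. Other higher genes differed: the median of the 10 MZ samples was 631 for notch1a and 11055 for tmprss4b, in both nearer to WT. Among the 12 lower genes the highest MZ sample was the one labelled MZ_Pou5f1 replicate 3 in 8, a sample that correlated with WT replicate 1 at 0.992.

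**Figure D5:**
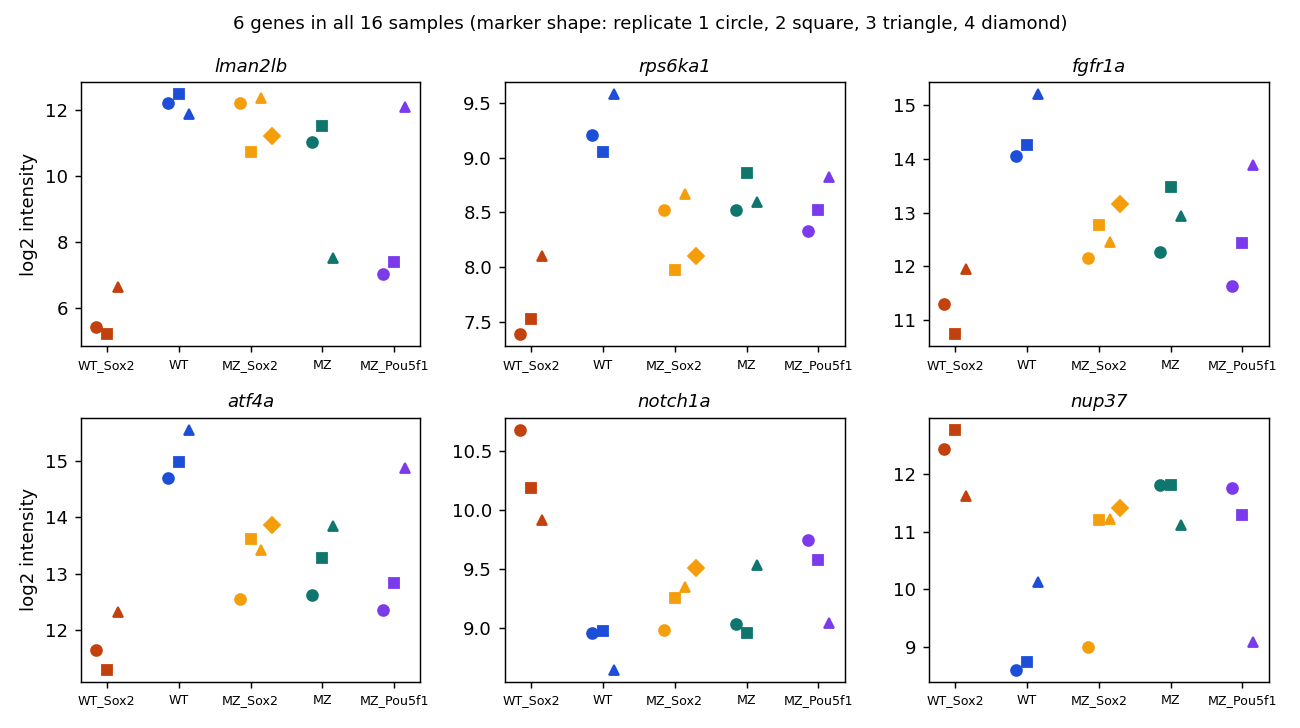
Log2 intensity (vertical axis) of 6 of the genes described in all 16 samples by group, with marker shape for the replicate number. For lman2lb 3 samples labelled MZ or MZ_Pou5f1 lie far below the WT samples but above every WT_Sox2 sample. For atf4a the sample labelled MZ_Pou5f1 replicate 3 lies among the WT samples.

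Under the brightness limit 19 of 13817 probes were called (0.138%), 17 higher (0.123%) and 2 lower (0.0145%). In WT the 17 higher probes had intensities from 5.98 to 30.5, and in WT replicate 3 all 17 were below the dark control feature of that sample, 52.8. That reading was itself unusual, being near the common median of 55.07. The highest dark feature in any other of the 6 samples was 8.65. All 17 probes were above the dark feature in all 3 WT_Sox2 samples, and 0 were above it in all 3 WT samples. The differences of the 17 probes rest on these low WT values, and are not taken as measured sizes. The brightest was that of tusc3, for a subunit of the oligosaccharyltransferase, at 309, 174 and 160 in WT_Sox2, against 10.04, 27.0 and 30.5 in WT. The parvalbumin gene pvalb7 read 66.8, 56.7 and 48.0 in WT_Sox2, against 10.3, 8.481 and 6.501 in WT. The other named probes were those of nitr4a, prss1, ahsg1, ugt1ab and fads2 on the higher side and pyroxd2 and cyp46a1.1 on the lower, and 10 had no gene name.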

How the data were processed

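Embryo RNA was hybridised to 2-colour Agilent arrays, each channel holding its own sample. The series design text says that the authors separated the channels and quantile normalised them for independent comparison. The deposited values are linear intensity values, and the submitters' processing notes name Agilent Feature Extraction. How background was corrected is not given. The deposited columns shared 1 distribution in 14 of 16 samples (median 55.07), and the other 2 columns, both of MZ groups, were mapped onto it by rank. Values were then taken to log2.

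All 16 samples entered 1 limma fit (version 3.58.1, R 4.3.3) with group means, a dye term and the array as random block (correlation 0.0429). Differences are those of the fit. Two-sided p-values were adjusted by Benjamini-Hochberg across 21495 probes and called below 0.05, and 60 control features were left out. Of the probes 12887 had 1 gene symbol and 8608 none. The members, gene lists and naming rule were chosen with earlier results of these data known. The rule named sox2 and pou5f3, up to 12 bright genes in each direction, called first and then by the moderated statistic among those without overlap, passing over clone names, and up to 3 bright members of each of 26 lists. Lists were described by counts and medians, without a test.

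The series design text calls the replicates biological. Arrays give no read depth, and their number limits the precision. On data simulated for WT_Sox2 against WT over 21495 probes, changes of 1, 2, 4 and 6 on the log2 scale were called in 10, 58, 92 and 94% of 50 probes each. The simulation gave each probe 1 SD and independent noise in every sample, without slide effects or a deviating sample. These shares are therefore not the power of the real comparison. Alternatives covered normalization, dye, blocks, samples, empirical Bayes options, weights, brightness, threshold and each replicate left out. WT replicates 1 and 2 averaged as 1 sample was an alternative chosen after seeing the data.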

Additional observations from a re-analysis of the deposited data

How the results depend on the processing

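The 21 calls over all probes and the 2 among bright named genes depended on the fit, in that order: 0 and 0 with the 2 columns as deposited, in a fit of only the 6 samples and under a random slide block, 36 and 4 with cyclic loess, 32 and 7 with an empirical Bayes trend, 11 and 8 with only bright probes tested, and 214 and 47 at a threshold of 0.1. With WT replicates 1 and 2 averaged, chosen after seeing the data, they were 4 and 0. Array weights, whose estimate did not converge, gave 5511 and 1460. Among bright genes the count was also 0 without the array block, with robust empirical Bayes, at a brightness limit of 9 on the log2 scale and with every sample at 8 or more. With each sample left out the counts ranged from 0 to 121 over all probes and from 0 to 14 among bright genes. Non-overlapping bright genes numbered between 1512 and 2671, and positive lists between 9 and 18. Leaving out a sample cannot make separate groups overlap, so the former range had to reach at least 1362 and is no check of that count. With the replicate number as a block the counts were 0 and 0. Same-numbered samples deviated in opposite ways (r of -0.23, -0.201 and -0.256), and no sample correlated best with its own number. Replicate 3 stood apart in both groups and shaped all these values, so they cannot decide whether same-numbered samples were paired. The interaction called 0 bright genes in all fits but those with slide as a fixed block (4) and array weights (1344). With slide as a fixed block the difference between WT_Sox2 and WT could not be fitted. Over 18 alternatives lman2lb stayed between -7.21 and -6.12 and was called in 4 (adjusted p 0.00063 to 0.234), and rps6ka1 between -1.80 and -1.41, called in 5 (0.00073 to 0.242). None of the 24 genes chosen for non-overlapping groups changed sign under these alternatives, but that choice nearly fixes the sign, so this is no check of them. Genes that did were uncalled and the cause was not tested. With array weights sox3 (0.67), foxh1 (0.20), smad2 (-0.013), fabp3 (0.24) and mylpfb (0.17) turned. With the averaged WT samples pou5f3 (-0.022), sox19a (-0.42), mycb (0.29), apoeb (-1.62) and tnni2a.4 (-0.68) turned, and sox3 (0.19) with a random slide block. With 1 sample left out the ranges were -0.12 to 0.29 for pou5f3, -1.02 to 0.65 for sox3, -0.39 to 0.66 for sox19a, -1.38 to 0.33 for mycb, -0.47 to 0.13 for foxh1, -0.45 to 0.39 for fabp3, -1.79 to 2.99 for apoeb, -0.31 to 0.086 for ctsba, -0.33 to 0.081 for mylpfb and -0.70 to 1.18 for tnni2a.4.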
